A study of Mus musculus with 5 samples.

Results

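The genes described here carry the nitric oxide signal through the arterial wall: the nitric oxide synthases Nos1, Nos2 and Nos3, the soluble guanylate cyclase subunits Gucy1a1 and Gucy1b1, the cGMP-dependent protein kinases Prkg1 and Prkg2, the G kinase substrate Irag1 (formerly Mrvi1), caveolin-1 (Cav1) and GTP cyclohydrolase 1 (Gch1). They were read from every Affymetrix Mouse Genome 430 2.0 probe set that the platform's annotation assigns to a single gene, that gene being a member. A probe set is a group of short probes against the 3′ part of a transcript. This gave 21 of 45037 probe sets, for 10 of 10 genes.

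RNA came from thoracic aortas of male C57BL/6 mice. One group of 3 arrays came from transgenic mice that express P467L, a dominant negative mutant of human PPARγ, from the smooth muscle myosin heavy chain promoter, and the other group of 2 arrays came from their non-transgenic littermates. Each array held a pool of 6 to 8 aortas, described as an independent biological replicate, so the spread is between pools and not between animals. The transgene is directed to smooth muscle, while the RNA is that of the whole vessel with its endothelium, adventitia and any fat left on it.

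In the vessel wall nitric oxide is made in endothelial cells by Nos3 and diffuses into smooth muscle, where it binds the heme of soluble guanylate cyclase, a dimer of an α and a β subunit. The cGMP that this enzyme makes activates G kinase, which lowers calcium and calcium sensitivity and relaxes the muscle. Caveolin-1 binds and restrains Nos3 in caveolae, and Gch1 starts the synthesis of tetrahydrobiopterin, the cofactor that Nos enzymes need.

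Deposited values were RMA signals on the log2 scale, so 1 unit is a doubling. The median signal of an array lay between 6.17 and 6.25. Smooth muscle markers fixed as a list averaged from 12.69 to 12.76 over 12 genes on the 5 arrays and Acta2 and Tagln were brightest of them. Arrays differed in ways the genotype label does not give. P467L replicate 1 had 842 probe sets at least 1 log2 unit below all other arrays and 0 as far above, and in it the nuclear noncoding RNA Malat1 measured 8.03 against 9.45 to 9.87 elsewhere. Non-transgenic replicate 2 carried stomach transcripts, with a list mean of 10.3 over 10 genes against 7.37 to 7.87 on the other arrays. The mean of 10 adipocyte markers was 9.24 and 8.37 in non-transgenic aortas, against 8.47 to 8.99 with P467L, so these markers varied within both groups. The brightest stomach genes, Tff1 and Gkn2, differed by -0.91 (SE 1.04) and -0.90 (SE 1.42), and Neat1, the other nuclear RNA, by -0.28 (SE 0.48). Fibroblast markers averaged from 12.0 to 12.2 over 10 genes, with the brightest, Col1a2 and Dcn, at -0.03 (SE 0.04) and 0.06 (SE 0.11). Not all of these genes were that flat. Cd248 at 0.64 (SE 0.13), Lum at 0.245 (SE 0.09) and Col1a1 at 0.155 (SE 0.04) had every P467L array above both non-transgenic arrays. Such a separation was seen in 16.1% of all genes. These 3 also passed an unadjusted p of 0.05 in limma, against 6.94% of all genes in that direction. The groups overlapped in the other 7. Striated muscle lists averaged from 6.64 to 7.08 (9 cardiac genes) and from 5.68 to 6.07 (12 skeletal genes), with Tnnt2 at 1.02 (SE 0.10), Ryr2 at 0.21 (SE 0.21), Ckm at 1.33 (SE 0.32) and Tnni2 at -0.09 (SE 0.13). Pparg itself, read by 1 probe set, measured 7.32 and 6.91 in non-transgenic and 7.32, 7.27 and 7.27 in P467L aortas. It is unknown if that probe set can hybridise to RNA of the human transgene.

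P467L aortas measured higher than non-transgenic aortas in Nos3, Gch1, Irag1 and 2 of the 3 Prkg2 probe sets, and lower in Gucy1a1, Cav1 and 1 of the 2 Gucy1b1 probe sets, each without overlap between the groups. Of the 21 probe sets 12 had non-overlapping groups, 7 higher and 5 lower, where the background over all 45037 probe sets was 18.9%, made of 11.2% higher and 7.61% lower. None passed the test across all probe sets: with Benjamini-Hochberg adjustment at 0.05, limma called 0 of 21 and likewise 0% of the whole array. Among the members adjusted p reached 0.230 at the lowest. At an unadjusted p of 0.05 limma placed 12 of 21 past the threshold, the same 12, as every probe set past it on the whole array also had groups apart, against 7.44% of all probe sets; 7 of these were higher and 5 lower, against 4.71% and 2.74%. The median size of the difference, sign ignored, was 0.24 over the 21 probe sets and 0.07 over all probe sets. Several probe sets read the same gene. With the brightest probe set per gene, 6 of 10 had groups apart, 4 higher and 2 lower, against 16.1% and 6.55% of all genes. The members were chosen with earlier results of these data known, so these counts cannot show an excess over the background. That count of 12 at an unadjusted p of 0.05 was 6 if non-transgenic replicate 1 was left out, and 7 if P467L replicate 1 and non-transgenic replicate 2 both were.

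**Figure D1:**
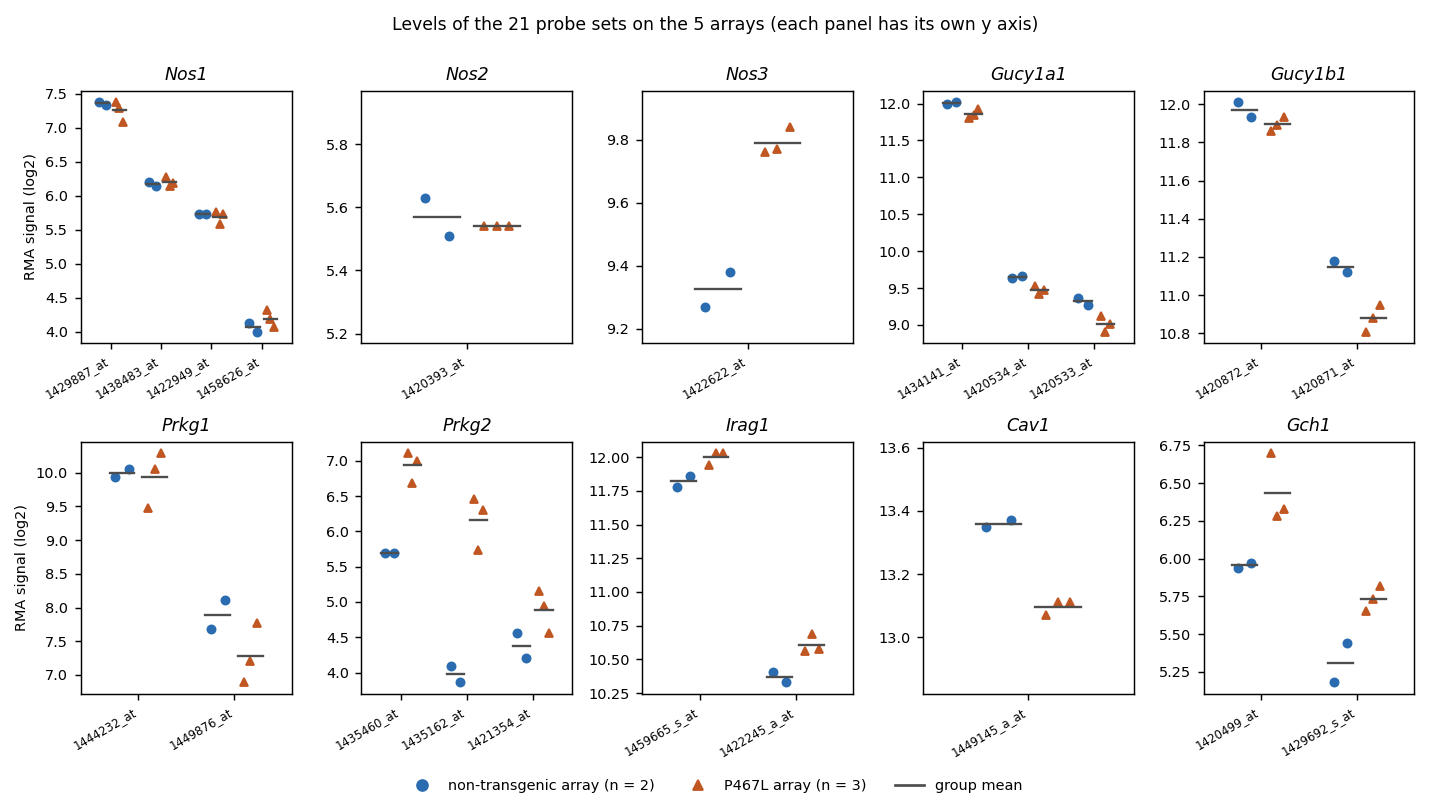
RMA signal (log2) of the 21 probe sets on each array, 1 panel per gene with its own y axis; circles are the 2 non-transgenic arrays, triangles the 3 P467L arrays, and short lines the group means. In Nos3 and Cav1, among others, the groups are separated by more than their own spread, while all 4 Nos1 probe sets and the Nos2 probe set overlap.

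Among the synthases, Nos3, the endothelial enzyme, was read by 1422622_at. It measured 9.27 and 9.38 in non-transgenic against 9.76, 9.77 and 9.84 in P467L aortas. Every P467L array lay above both non-transgenic arrays, and the spread within either group was small beside the gap. The difference was 0.47 (SE 0.05, 95% interval from 0.32 to 0.61), a ratio of 1.38, with a limma adjusted p of 0.234. Over all alternatives it ranged from 0.41 to 0.54. Only with array weights did it pass the adjusted threshold, at 0.0216 with the default estimate and 0.0477 with the gene-by-gene estimate. Both estimates put most weight on P467L replicate 2, at 34.1 and 4.61, against at most 1.44 for any other array.

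Nos3 is made by the endothelium, so the 21 endothelial markers were read beside it. Their mean per array was 9.20 and 9.22 in non-transgenic and 9.29, 9.23 and 9.26 in P467L aortas, a difference of 0.05. By their mean differences 13 markers were higher and 8 lower. Of the 21, 8 had every P467L array above both non-transgenic arrays and 2 every one below, against 16.1% and 6.55% of all genes read by 1 probe set each. At an unadjusted p of 0.05 limma placed 4 higher and 1 lower, or 5 of 21, against 9.45% of those genes. The tight junction gene Cldn5 measured 0.73 (SE 0.12) and the sialomucin Emcn -1.05 (SE 0.12). Cd34 and Pecam1, the brightest of the list, measured 0.22 (SE 0.08) and -0.09 (SE 0.05). The von Willebrand factor gene Vwf measured 0.10 (SE 0.06) and VE-cadherin (Cdh5) 0.04 (SE 0.11). The Nos3 difference was thus larger than that of 20 of the 21 markers in the upward direction, the exception being Cldn5; whether endothelial content has a part in it was not tested. In these bulk samples fewer cells of a type and less RNA per cell cannot be told apart.

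**Figure D2:**
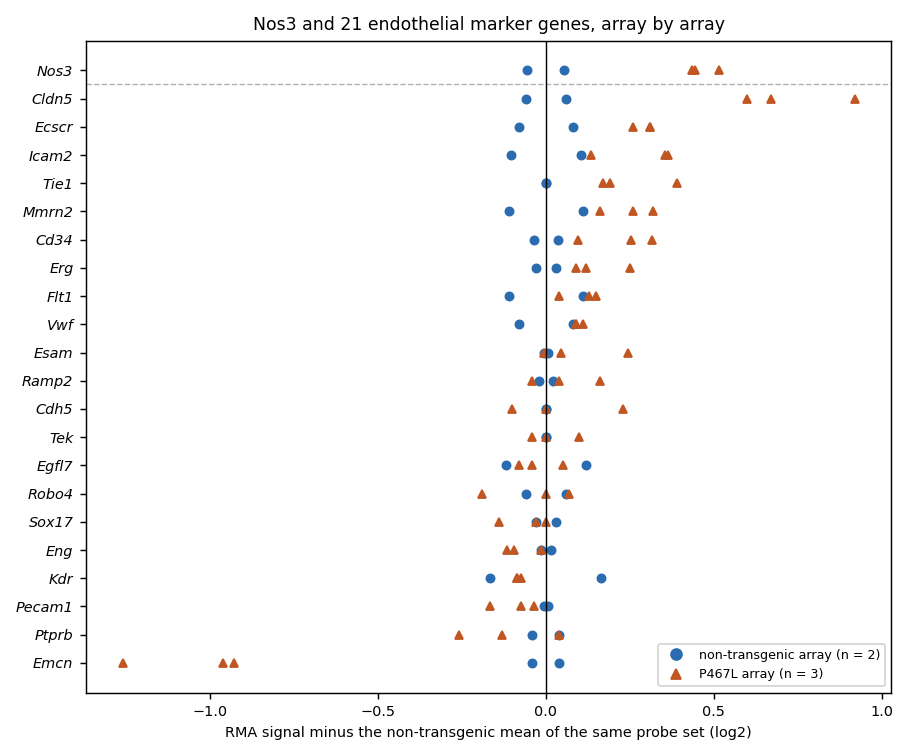
Signal on each array minus the non-transgenic mean of the same probe set (log2), for Nos3 and 21 endothelial marker genes sorted by their difference; circles are the 2 non-transgenic and triangles the 3 P467L arrays. In Nos3 and in 8 of the 21 markers every P467L array lies right of both non-transgenic arrays, furthest in Cldn5 at 0.73 on average, while Emcn lies far to the left at -1.05.

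Nos1, the neuronal synthase, was read by 4 probe sets, and in each of them the groups overlapped. The brightest, 1429887_at, measured 7.38 and 7.34 in non-transgenic and 7.38, 7.30 and 7.09 in P467L aortas. Its difference was -0.10 (SE 0.10), with a 95% interval from -0.37 to 0.17 and a limma adjusted p of 0.828. The other 3 lay below the median of all probe sets, 6.23. For 1438483_at the values were 6.21 and 6.15 against 6.28, 6.14 and 6.19, for 1422949_at 5.73 and 5.73 against 5.76, 5.59 and 5.73, and for 1458626_at 4.13 and 4.0 against 4.32, 4.19 and 4.06. Their differences were 0.02, -0.04 and 0.13, and the 95% intervals of the 4 probe sets reached at most 0.39 in size. Markers of neurons and Schwann cells had list means of 6.13 and 6.06 in non-transgenic and 6.31, 6.18 and 6.12 in P467L aortas over 11 genes, 7 higher and 4 lower, with a median difference of 0.05. The brightest, Uchl1 and Stmn2, differed by 0.53 (SE 0.12) and 0.44 (SE 0.11). They were the 2 of the 11 past an unadjusted p of 0.05 in limma, against 9.45% of all genes. Groups were apart in 4 of the 11, all higher, against 16.1% of all genes in that direction. The Schwann cell genes Sox10, Mbp and S100b measured -0.17 (SE 0.13), -0.07 (SE 0.06) and 0.10 (SE 0.15). The part of nerve tissue in the Nos1 values was not tested.

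Nos2, the inducible synthase of activated macrophages and cytokine-treated smooth muscle, was dim. Its probe set 1420393_at measured 5.63 and 5.51 in non-transgenic and 5.54 in each P467L array. The P467L values lay between the non-transgenic ones. The difference was -0.03 (SE 0.05, 95% interval from -0.16 to 0.10). Macrophage markers averaged 8.52 and 8.56 in non-transgenic and 8.87, 8.56 and 8.73 in P467L aortas over 13 genes, 12 higher and 1 lower. The brightest, Lyz2 and Csf1r, measured 0.16 (SE 0.13) and 0.12 (SE 0.11). Groups were apart in 5, 4 higher and 1 lower, against 16.1% and 6.55% of all genes. At an unadjusted p of 0.05 limma placed 2 higher and 0 lower, against 6.94% and 2.51%. These 2 were C1qb at 0.36 (SE 0.12) and Laptm5 at 0.25 (SE 0.08).

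Gch1, which catalyses the committed step of tetrahydrobiopterin synthesis, measured higher in P467L aortas by both of its probe sets. The values of 1420499_at were 5.94 and 5.97 in non-transgenic and 6.70, 6.28 and 6.33 in P467L aortas, with replicate 1 highest. Those of 1429692_s_at, whose suffix marks probes that may match more than a single transcript family, were 5.18 and 5.44 against 5.65, 5.73 and 5.82. In both the groups did not overlap. The differences were 0.48 (SE 0.15) and 0.42 (SE 0.10), ratios of 1.40 and 1.34, with limma adjusted p of 0.578 and 0.493. Of 5 other genes of cofactor synthesis and recycling, sepiapterin reductase (Spr), which completes the synthesis, measured 8.97 and 8.88 against 9.59, 9.40 and 9.20, a difference of 0.47 (SE 0.13) with groups apart. Gchfr, the feedback regulator that binds Gch1, measured -0.16 (SE 0.24). Of the 5, limma placed 1 higher and 0 lower past an unadjusted p of 0.05, where the per-gene background was 6.94% higher and 2.51% lower, and 0 passed adjustment.

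Caveolin-1, the coat protein of caveolae, measured lower in P467L aortas, with the smallest standard error of the 21 probe sets. Its 1 probe set, 1449145_a_at, measured 13.35 and 13.37 in non-transgenic and 13.07, 13.11 and 13.11 in P467L aortas. The gap between the groups exceeded the range within each. The difference was -0.26 (SE 0.03, 95% interval from -0.36 to -0.17), a ratio of 0.833, with a limma adjusted p of 0.279. Its mean level was higher than that of 99.5% of probe sets. Cav1 is abundant in smooth muscle, endothelium and fat. The mean of the adipocyte list differed by -0.08 between the genotypes. Of its 10 genes 6 were higher and 4 lower, with a median difference of 0.02. Its brightest genes, Fabp4 and Lpl, measured -0.59 (SE 0.32) and -0.24 (SE 0.22). The part of fat or of any other cell type in the Cav1 difference was not tested.

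The remaining caveolar genes did not all go the same way. Of 7 measured, 5 were lower and 2 higher, with a median difference of -0.14 against 0.02 over all genes. Cavin2 measured 10.93 and 10.93 in non-transgenic and 10.58, 10.65 and 10.87 in P467L aortas, a difference of -0.23 (SE 0.10). Cavin3 went the opposite way, at 11.62 and 11.52 against 11.99, 11.86 and 11.77, a difference of 0.30 (SE 0.08). Cavin1, the main coat scaffold, measured -0.08 (SE 0.11), and Cav2, the partner of Cav1, -0.15 (SE 0.23) with P467L replicate 1 lowest at 11.43. Of the 7, limma placed 1 higher and 0 lower past an unadjusted p of 0.05, against 6.94% and 2.51% of all genes. After adjustment 0 passed. Groups were apart in 4 of the 7, 1 higher and 3 lower, against 16.1% and 6.55% of all genes.

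Promoter sequences are shown for Cav1, Gch1 and the cyclase subunits, the genes with groups apart that had an entry in the RefSeq promoter table (GRCm38.p6) apart from Irag1. Of the 10 members 7 matched the table, with 11 start sites. Each run is the 250 bases before a start, on the gene's own strand, 5′ to 3′, and capitals mark motif matches. The motifs searched on both strands were GGTCANAGGTC, the core of a direct repeat with 1 base between the repeated parts, as bound by PPAR and RXR dimers, the CCAAT box bound by NF-Y, which reads ATTGG on the opposite strand, and the CArG box of serum response factor, by its name alone. They do not overlap in these windows.

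The first lies before the downstream of 2 Cav1 starts, at chr6:17307390-17307639 on the plus strand.
Cav1: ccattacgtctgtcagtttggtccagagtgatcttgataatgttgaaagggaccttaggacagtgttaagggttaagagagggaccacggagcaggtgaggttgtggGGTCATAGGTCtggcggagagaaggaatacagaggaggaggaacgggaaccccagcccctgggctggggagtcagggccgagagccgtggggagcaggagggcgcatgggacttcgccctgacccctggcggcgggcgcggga
Gch1 lies at chr14:47189414-47189663 on the minus strand.
Gch1: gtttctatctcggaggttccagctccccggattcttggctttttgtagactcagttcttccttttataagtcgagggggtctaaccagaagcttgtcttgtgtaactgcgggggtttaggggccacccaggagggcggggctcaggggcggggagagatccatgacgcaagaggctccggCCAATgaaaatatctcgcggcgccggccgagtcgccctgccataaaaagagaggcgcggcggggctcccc
Gucy1a1, at its upstream start, lies at chr3:82145651-82145900 on the minus strand.
Gucy1a1: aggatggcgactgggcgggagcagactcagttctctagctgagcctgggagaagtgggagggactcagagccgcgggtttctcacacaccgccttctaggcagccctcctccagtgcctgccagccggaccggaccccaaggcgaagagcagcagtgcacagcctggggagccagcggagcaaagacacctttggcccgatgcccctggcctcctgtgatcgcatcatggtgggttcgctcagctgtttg
Gucy1b1 lies at chr3:82074712-82074961 on the minus strand.
Gucy1b1: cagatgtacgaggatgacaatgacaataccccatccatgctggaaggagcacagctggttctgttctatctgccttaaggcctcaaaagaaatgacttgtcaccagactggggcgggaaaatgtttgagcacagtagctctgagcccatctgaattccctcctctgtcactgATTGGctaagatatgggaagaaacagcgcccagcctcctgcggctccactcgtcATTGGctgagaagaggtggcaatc

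The Cav1 window holds GGTCATAGGTC from base -143 to -133 before the start. That core occurs in 1 of the 11 member windows and in 0.137% of 32851 windows of the same length. The search left free the outermost base on either side of the core. In the Cav1 window these bases read G and T, where the full AGGTCA repeat has A on both sides. The motif was chosen after the member windows had been read, and a match is a description of letters, not a bound site. CCAAT occurs in 3 of the 11 windows, those of Gch1, Gucy1b1 and a Prkg1 start, and in 33.8% of all windows. The CArG box letters occur in 0 of the 11 and in 1.47% of all.

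Both subunits of soluble guanylate cyclase were bright and measured lower in P467L aortas. Gucy1a1, the α1 subunit, was read by 3 probe sets. The brightest, 1434141_at, measured 12.00 and 12.02 in non-transgenic and 11.80, 11.85 and 11.93 in P467L aortas. For 1420534_at the values were 9.64 and 9.66 against 9.53, 9.42 and 9.47. In 1420533_at they were 9.37 and 9.27 against 9.12, 8.91 and 9.01. In all 3 every P467L array lay below both non-transgenic arrays, though by little in the brightest. The differences were -0.15 (SE 0.05), -0.18 (SE 0.05) and -0.31 (SE 0.08), that is 1.11-fold, 1.13-fold and 1.24-fold lower, with limma adjusted p from 0.517 to 0.638.

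Gucy1b1, the β1 subunit that carries the heme, was read by 2 probe sets. In 1420871_at the values were 11.18 and 11.12 in non-transgenic and 10.81, 10.88 and 10.95 in P467L aortas, with the groups apart. In the brighter 1420872_at they were 12.01 and 11.93 against 11.86, 11.89 and 11.93, and P467L replicate 3 touched non-transgenic replicate 2. The differences were -0.27 (SE 0.06) and -0.08 (SE 0.05), with limma adjusted p of 0.445 and 0.784. The smaller of them was -0.04 without non-transgenic replicate 1 and likewise with each array centred on its median. For both subunits the brightest probe set showed the smallest difference. Gucy1a1 and Gucy1b1 are neighbours in the mouse genome, with 0 annotated genes between them. The direction was the same for all 5 cyclase probe sets under each scaling, block, weighting and left-out array. For those with groups apart, only the scalings could have changed it.

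Other guanylate cyclases gave smaller or less even values. The α2 subunit Gucy1a2 measured 7.02 and 7.31 in non-transgenic and 6.48, 7.17 and 7.67 in P467L aortas, so the P467L arrays lay on both sides, and its difference was -0.06 (SE 0.39). The natriuretic peptide receptor Npr2, a membrane cyclase, measured 0.13 (SE 0.06) with groups apart, and Gucy2c, the intestinal cyclase, -0.06 (SE 0.07). Of 6 measured genes limma placed 0 past an unadjusted p of 0.05, against 9.45% of all genes.

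The G kinases differed from each other. Prkg1, the kinase of vascular smooth muscle, had wide spread in P467L aortas and overlapping groups. The brighter probe set 1444232_at measured 9.94 and 10.05 in non-transgenic and 9.47, 10.05 and 10.29 in P467L aortas. The dimmer 1449876_at measured 7.68 and 8.11 against 6.89, 7.2 and 7.77. In both, P467L replicate 1, the array with low Malat1, was lowest. The differences were -0.06 (SE 0.27) and -0.61 (SE 0.31), with 95% intervals from -0.79 to 0.67 and from -1.46 to 0.24. Without P467L replicate 1 they were 0.18 and -0.41, and without non-transgenic replicate 2 as well 0.23 and -0.20. Both intervals include 0, so neither a rise nor a fall of Prkg1 within them could be told from no difference with these arrays.

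Prkg2, the membrane-anchored kinase best known from intestinal epithelium and growth plate cartilage, had the largest differences of the members. The brightest probe set, 1435460_at, measured 5.69 and 5.69 in non-transgenic against 7.11, 6.69 and 7.0 in P467L aortas. With 1435162_at the values were 4.09 and 3.86 against 6.46, 5.73 and 6.30. In both the groups were far apart, with P467L replicate 2 the lowest of its group. The third, 1421354_at, measured 4.56 and 4.20 against 5.15, 4.94 and 4.56, so P467L replicate 3 equalled non-transgenic replicate 1. The differences were 1.24 (SE 0.14), 2.19 (SE 0.25) and 0.50 (SE 0.22), or ratios of 2.37, 4.56 and 1.42, with limma adjusted p of 0.230, 0.234 and 0.756. All non-transgenic values lay below the array medians and were not tested against background. Without P467L replicate 1 and non-transgenic replicate 2 the brightest probe set measured 1.16 and 1421354_at 0.19.

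Markers of tissues known for Prkg2 were read beside it. Chondrocyte markers averaged 6.38 and 6.32 in non-transgenic and 6.71, 6.61 and 6.62 in P467L aortas over 11 genes, 10 higher and 1 lower. Groups were apart in 5 of the 11, all higher, against 16.1% of all genes in that direction. At an unadjusted p of 0.05 limma placed 2 higher and 0 lower, against 6.94% and 2.51%. Hapln1 and Chad, both with groups apart, measured 0.63 (SE 0.25) and 0.33 (SE 0.13). The aggrecan gene Acan differed by 1.79 (SE 0.07) and Sox9 by 0.32 (SE 0.06). The cartilage collagen Col2a1, a defining marker, measured 6.68 and 6.42 against 6.84, 6.68 and 6.51, with a difference of 0.13 (SE 0.14), and Comp, the brightest of the list, 0.21 (SE 0.08). The part of cartilage, stomach or other tissues in the Prkg2 difference was not tested.

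Irag1, the inositol trisphosphate receptor-associated substrate through which G kinase I curbs calcium release, measured slightly higher in P467L aortas. The brighter 1459665_s_at measured 11.78 and 11.86 in non-transgenic and 11.94, 12.03 and 12.03 in P467L aortas. Its suffix marks probes that may match more than a single transcript family. In 1422245_a_at the values were 10.41 and 10.33 against 10.56, 10.69 and 10.58. Both had groups apart, by 0.08 and 0.15 at the nearest arrays. The differences were 0.18 (SE 0.05) and 0.24 (SE 0.06), ratios of 1.13 and 1.18, with limma adjusted p of 0.551 and 0.502. Of the 12 smooth muscle markers, at any brightness, 6 were higher and 6 lower. At an unadjusted p of 0.05 limma placed 3 higher and 0 lower, against 6.94% and 2.51% of all genes. Groups were apart in 5, 3 higher and 2 lower, against 16.1% and 6.55%. Acta2 and Tagln, the brightest, measured 0.015 (SE 0.03) and 0.02 (SE 0.03), and Myh11 -0.03 (SE 0.04). Smtn measured 0.16 (SE 0.04) and desmin (Des) 0.81 (SE 0.13), both with groups apart. The markers nearest in level to 1459665_s_at of Irag1 were Mustn1 at 0.17 (SE 0.04) with groups apart, Lmod1 at 0.08 (SE 0.07) and Actg2 at -0.08 (SE 0.08).

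**Figure D3:**
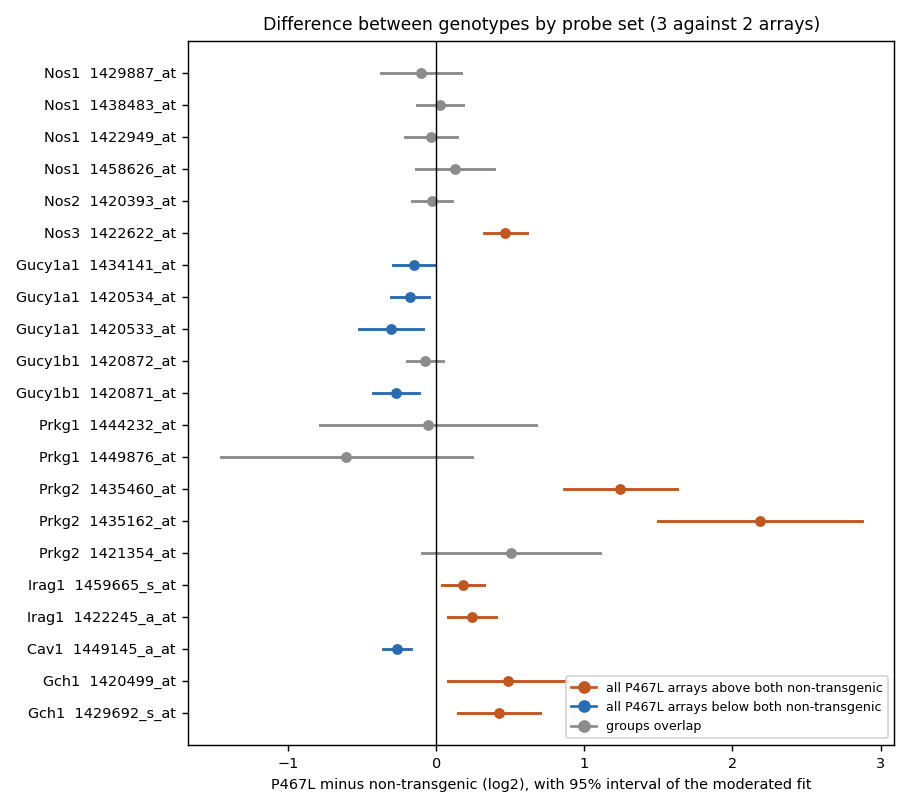
Difference between P467L and non-transgenic aortas (log2) for each probe set, with the 95% interval of limma's moderated fit over 3 against 2 arrays; orange marks probe sets with all P467L arrays above, blue with all below, grey with overlap. Prkg2 reaches 2.19, the cyclase subunits and Cav1 lie between -0.31 and -0.08, and the Prkg1 intervals are the widest.

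Among enzymes that break down cGMP, Pde1c, a calmodulin-dependent phosphodiesterase of proliferating smooth muscle, had the largest difference. It measured 5.43 and 5.21 in non-transgenic and 7.03, 7.03 and 7.31 in P467L aortas, a difference of 1.80 (SE 0.13) with a limma adjusted p of 0.134. Pde1a measured 0.25 (SE 0.07) with groups apart. Pde5a, the main cGMP-specific enzyme of smooth muscle, measured 0.03 (SE 0.13). Of 12 genes 3 lay past an unadjusted p of 0.05, all higher, against 6.94% of all genes in that direction, and 0 passed adjustment; the median difference was 0.03.

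Of 15 genes downstream of G kinase, limma placed 2 higher and 1 lower past an unadjusted p of 0.05, against 6.94% and 2.51% of all genes. After adjustment 0 passed. Groups were apart in 8 of the 15, 4 higher and 4 lower, against 16.1% and 6.55% of all genes. The transcription factor gene Gtf2i measured 11.13 and 11.11 in non-transgenic and 11.52, 11.47 and 11.32 in P467L aortas, a difference of 0.32 (SE 0.07). Rgs2, which G kinase activates to dampen receptor signalling, measured 8.63 and 8.88 against 8.28, 8.24 and 8.50, a difference of -0.42 (SE 0.12). The phospholamban gene Pln differed by 0.68 (SE 0.21), while Vasp, Mylk and the channel Kcnma1 gave 0.09, 0.05 and 0.03.

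Genes that supply or modify the synthases gave no value past an unadjusted p of 0.05 in 14 measured, against 9.45% of all genes. The arginine carrier Slc7a2 measured 8.85 and 9.09 against 9.07, 9.44 and 9.57, a difference of 0.39 (SE 0.18), and Nostrin, a Nos3 trafficking protein, 0.25 (SE 0.13). The groups overlapped in all 14, where 16.1% of all genes were apart and higher and 6.55% apart and lower. Of the 14, 4 lay below the median level of all probe sets. Ass1 measured 3.97 on every array, so its groups could not be apart. The kinase Akt1, which phosphorylates Nos3, measured 0.07 (SE 0.06) and the chaperone gene Hsp90aa1 -0.23 (SE 0.37), with P467L replicate 1 lowest at 11.45. Over all 59 pathway genes outside the members, groups were apart in 19, 10 higher and 9 lower, against 16.1% and 6.55% of all genes. Past an unadjusted p of 0.05 limma placed 7 higher and 1 lower, against per-gene backgrounds of 6.94% and 2.51%. The median of these 59 was 0.00, and 0 passed adjustment. That count of 8 dropped to 4 if non-transgenic replicate 1 was left out and to 3 if P467L replicate 2 was.

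**Figure D4:**
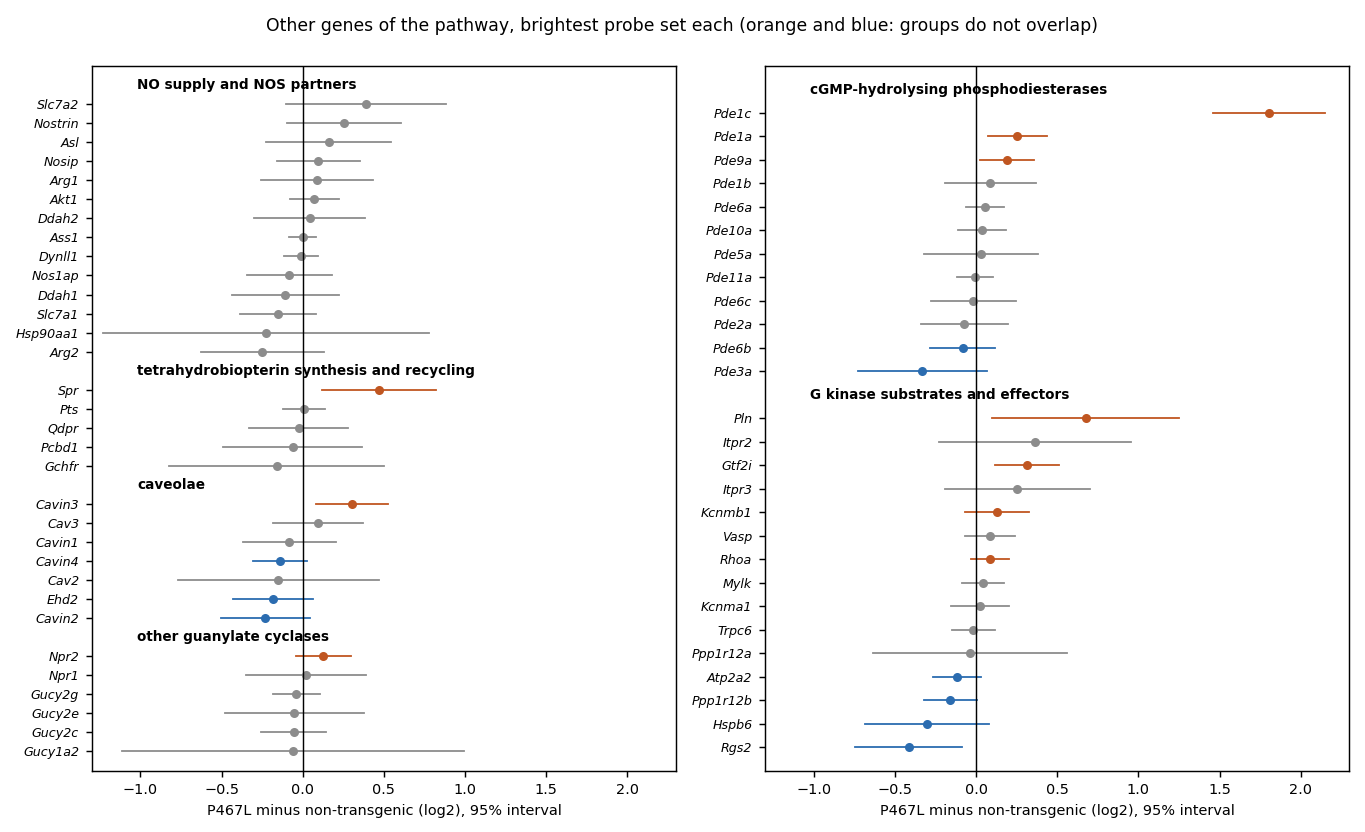
Difference between P467L and non-transgenic aortas (log2) with 95% intervals for 59 other genes of the pathway, grouped by role and read from the brightest probe set of each; orange and blue mark genes whose groups do not overlap. Pde1c stands alone at 1.80, and none of the 14 genes of nitric oxide supply is coloured.

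The genes whose pattern over the 5 arrays lay closest to Nos3 were Tmc6, the Wnt receptor Fzd1 and the heparan sulfate sulfatase Sulf1, at root mean square distances of 0.019, 0.027 and 0.031 log2 units between deviations from each probe set's own mean. Closest to Prkg2 were the Rac regulator Chn2 at 0.070, Myzap at 0.10 and the plasminogen activator Plat at 0.10. With 5 arrays in 2 groups, likeness of this kind mostly describes a similar difference between the groups. Chn2, for example, measured 5.62 and 5.81 in non-transgenic and 7.13, 6.80 and 7.01 in P467L aortas.

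The 12 probe sets with groups apart kept their direction in every alternative tried, while of the 9 others 4 did. Where groups are apart, leaving arrays out or changing weights, block, prior or filter cannot reverse the sign. Only median centring and the second quantile normalization could have reversed it, so the contrast with the 9 others mostly follows from the selection. The leave-out ranges were 1.16 to 1.37 for 1435460_at of Prkg2, -0.27 to -0.24 for Cav1 and 0.35 to 0.56 for 1420499_at of Gch1.

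**Figure D5:**
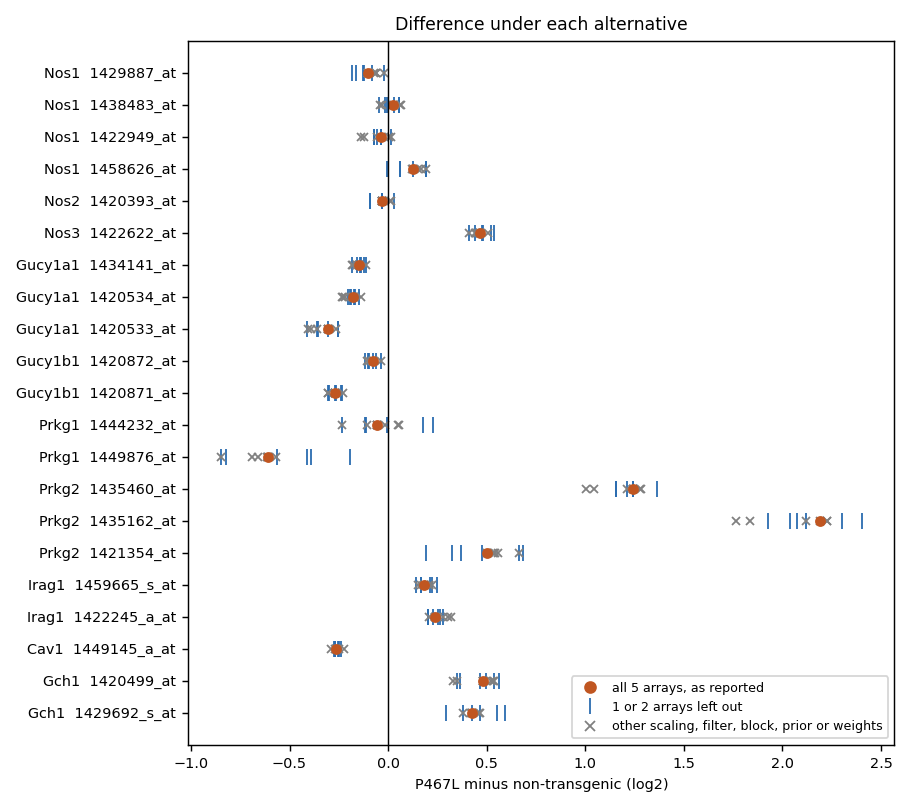
Difference between P467L and non-transgenic aortas (log2) for each probe set with all 5 arrays (filled circles), with 1 or 2 arrays left out (vertical bars) and under other scaling, filter, block, prior or weights (crosses). Nos3, Prkg2, Irag1 and Gch1 stay right of 0 and Gucy1a1, Gucy1b1 and Cav1 left of it, while 1444232_at of Prkg1 ranges from -0.24 to 0.23. Where the groups do not overlap, only the other scalings could have moved a value across 0.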

How the data were processed

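RNA of 5 pooled aorta samples was hybridised to 1 array each. The authors deposited log2 signals; the submitters' processing notes name RMA and Affymetrix Power Tools. No version or scan date is stated there. Because RMA equalises the arrays' distributions, it would remove a change common to most transcripts. Names come from the platform annotation, updated through NCBI gene numbers (GRCm38.p6). Affymetrix's 64 controls were not used.

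limma 3.58.1 (R 4.3.3; lmFit and eBayes, two-sided) compared 3 P467L with 2 non-transgenic arrays on 45037 probe sets without covariates, adjusted over all of them by Benjamini-Hochberg; its prior had 1.23 degrees of freedom. Differences are P467L minus non-transgenic. Lists used each gene's brightest single-gene probe set; all 206 symbols matched a gene number and 190 had a probe set. The script was tested on simulated data. The number of arrays limits precision. Members, lists and naming rule were chosen with earlier results of these data known. The rule took every member probe set, the 2 genes per pathway list with the smallest p, the 2 brightest markers per cell list, and the 3 genes most alike to Nos3 and to Prkg2. Other genes were named after their values were seen. Alternatives are in the closing section.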

Additional observations from a re-analysis of the deposited data

How the results depend on the processing

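Of 276 values of single probe sets under the alternatives, 247 kept direction and call, 13 passed the adjusted threshold only with array weights, and 16 changed sign, all in Nos1, Nos2 and 1444232_at of Prkg1, whose groups overlap. With each array centred on its median, 1422949_at of Nos1 gave 0.0033 and Nos2 gave 0.01, and after a second quantile normalization they gave 0.013 and 0.016. Under default and gene-by-gene array weights (the latter added after the data were seen), 1438483_at of Nos1 gave -0.039 and -0.030, and 1444232_at gave 0.054 and 0.049. With arrays left out, values ran from -0.07 to 0.015 for 1422949_at, from -0.045 to 0.055 for 1438483_at, from -0.005 to 0.19 for 1458626_at, from -0.09 to 0.03 for Nos2 and from -0.235 to 0.23 for 1444232_at. The causes of these changes were not tested.

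Default array weights, whose estimate did not converge, called 2245 probe sets and 10 members, and gene-by-gene weights 283 and 3; at an unadjusted p of 0.05 they gave 12941 and 9153 in all, and 22 and 16 pathway genes. Adjusted calls over the array numbered 17 at a threshold of 0.10, 15 after median centring and 10 with 1 probe set per gene, with 0 members among them. With 1 probe set per gene fewer features were tested: 1733 genes and 6 members passed an unadjusted 0.05, and groups were apart in 4125 genes and 6 members. Median centring put the groups apart in 14083 probe sets. With arrays left out, unadjusted calls ran from 2206 to 5157 in all, from 6 to 11 among members and from 3 to 11 among pathway genes, and groups were apart in 10461 to 25541 probe sets, since fewer arrays separate more easily.

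The groups share the numbers 1 and 2, but each pool is described as independent. Deviations from the group means of same-numbered arrays correlated at 0.113 and 0.0081, but with 2 non-transgenic arrays these deviations mirror each other, so the check cannot tell whether the numbers pair the arrays, and they were not treated as pairs. With the replicate block, which leaves P467L replicate 3 without weight, limma called 0 members, 12 passed an unadjusted p of 0.05, and Nos3 measured 0.44, 1435460_at of Prkg2 1.21 and Cav1 -0.27. Where a fit left 1 non-transgenic array, that array was assumed to vary like the others, and 2 arrays in a group limit the precision throughout.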
